A study of Homo sapiens with 8 samples.

Results

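The 10 genes described here are the receptor genes NOTCH1 and NOTCH3 and 8 genes that NOTCH1 is known to switch on in T-cell leukaemia: HES1, HES4, HEY1, DTX1, DTX4, NRARP, FJX1 and LFNG. They were given by name and matched by gene symbol, and all 10 were found once each among the 63677 genes listed. Transcripts were measured by RNA sequencing of total RNA in 4 groups of 2 libraries. The groups were DND-41 with 100 nM ACBI-1, DND-41 with DMSO, MOLT-4 with 100 nM ACBI-1 and MOLT-4 with DMSO, all harvested at 3 h. DND-41 and MOLT-4 are established human lines of T-cell acute lymphoblastic leukaemia (T-ALL), so each stands for a single patient's leukaemia. DMSO is the solvent control, and ACBI-1 is a degrader that directs SMARCA2, SMARCA4 and PBRM1, subunits of the SWI/SNF chromatin remodelling complexes, to the VHL ubiquitin ligase.

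Notch is a cell surface receptor that is cut when it meets a ligand on a neighbouring cell. The freed intracellular part enters the nucleus, binds the DNA-binding protein RBPJ with a Mastermind coactivator, and switches on genes such as HES1. In T-ALL, NOTCH1 is often mutated so that it signals with little or no ligand, and its targets are then active in the leukaemic cells.

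Depth was even, with 19867779 to 20082524 counted reads per library, so that 1 CPM (a read count scaled to a common library size) stood for 19.3 to 20.7 reads. Mitochondrial genes took 13.3% to 20% of the reads, with 17.4% and 13.3% in the ACBI-1 libraries of DND-41 and 15.2% and 15.1% in its DMSO libraries. The T-cell genes CD3D, CD3E and CD3G had at least 2885 reads in every library, and CD7, PTPRC, CD2 and CD28 at least 266. CD7 had 40095 to 45683 reads in DND-41 and 1536 to 1831 in MOLT-4. The T-cell genes CD5 and PTCRA were low in DND-41. CD5 had 23 to 44 reads there and 2042 to 3052 in MOLT-4, and PTCRA 0 or 1 there and 218 to 301 in MOLT-4. TLX3, the oncogene of DND-41, had 4611 to 7523 reads in that line and at most 9 in MOLT-4. TAL1, the oncogene of MOLT-4, had 722 to 796 reads in that line and 0, 0, 1 and 4 in DND-41, the 4 in DMSO replicate 2. The B-lineage gene CD79A had 31024 to 35375 reads in DND-41 and 176 to 314 in MOLT-4, but the B-lineage gene MS4A1 had 0 in every library, as had LYZ, CD33, HBB, KRT18 and COL1A2. In bulk RNA, fewer cells that express a gene and less RNA per cell cannot be told apart. The ACBI-1 libraries of DND-41 differed most from each other, with a mean chi-square per gene of 15.6 against 2.99 to 5.1 in the other groups. That mean was taken on raw counts against library totals, mitochondrial genes included, so genes with many reads weigh most in it. The part of the mitochondrial genes in it was not tested. Separate cultures are not stated for the replicates, and a p-value here covers no more than the spread of the libraries, possibly technical.

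The sequence just before the start of HES1 and HES4 is shown because HES1 had one of the 3 lowest p-values of all genes in each line and HES4 is its close relative. RBPJ is known to bind GTGGGAA, and the HES1 promoter is known for a pair of such sites that face each other. Each line gives the 120 bases before the start of transcription, 5′ to 3′ on the strand of the gene, from RefSeq on GRCh38.p14. Capitals mark the motif GTGGGAA. They also mark its shorter form TGGGAA where that stands alone. At the facing site they mark TTCACAC, the motif GTGTGAA as it appears when read from the opposite strand.
HES1, chr3:194136028-194136147, plus strand: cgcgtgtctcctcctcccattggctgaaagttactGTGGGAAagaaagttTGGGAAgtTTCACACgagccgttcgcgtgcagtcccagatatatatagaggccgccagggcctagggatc
HES4, chr1:1000098-1000217, minus strand: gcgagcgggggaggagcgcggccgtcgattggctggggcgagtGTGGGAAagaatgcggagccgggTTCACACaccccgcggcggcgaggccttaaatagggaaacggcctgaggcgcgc

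In HES1 the GTGGGAA lay 85 to 79 bases before the start and the facing GTGTGAA 62 to 56 bases before it. In HES4 they lay at 77 to 71 and at 54 to 48, so that 16 bases separated them in both promoters. The 250 bases before each start were searched on both strands in 35116 RefSeq windows. GTGGGAA was present in 5.43% of them, the shorter TGGGAA, which every GTGGGAA contains, in 20.8%, and GTGTGAA in 2.48%. A GTGGGAA facing a GTGTGAA within 40 bases occurred in 6 windows (0.0171%), HES1 and HES4 among them, but this arrangement was chosen after the HES1 sequence had been read. Of the 10 genes, 8 had an entry in the promoter table, with 10 windows in all; HEY1 and DTX1 are named only. FJX1 held TGGGAA at 20 to 15 bases before its start, and 1 of the LFNG windows held it at 248 to 243. None of the letters searched for were found in the windows of NOTCH1, NOTCH3, DTX4 or NRARP. A match is a description of the letters and not a measured binding site.

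In DMSO the order of the levels differed between the lines. Compared per length, as CPM per kb of merged exons, DTX1 led in DND-41 at 315, followed by NOTCH1 at 89.2, NOTCH3 at 53.6, HES1 at 33.0 and HES4 at 3.39. DTX4 at 0.831 and LFNG at 0.724 overlapped between libraries, HEY1 stood at 0.0993, and FJX1 and NRARP had no reads. In MOLT-4 NOTCH1 led at 79.8 CPM per kb, followed by HES1 at 26.6, DTX1 at 6.76 and NOTCH3 at 3.97. HES4 at 1.66 and FJX1 at 1.53 overlapped, NRARP stood at 0.175, LFNG at 0.053 and DTX4 at 0.051 overlapped, and HEY1 had no reads. With ACBI-1 the order stayed as it was in DND-41. In MOLT-4 with ACBI-1, NOTCH1 stood at 43.8 and HES1 at 8.07, and NOTCH3 at 3.32 and DTX1 at 2.7 overlapped.

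**Figure D1:**
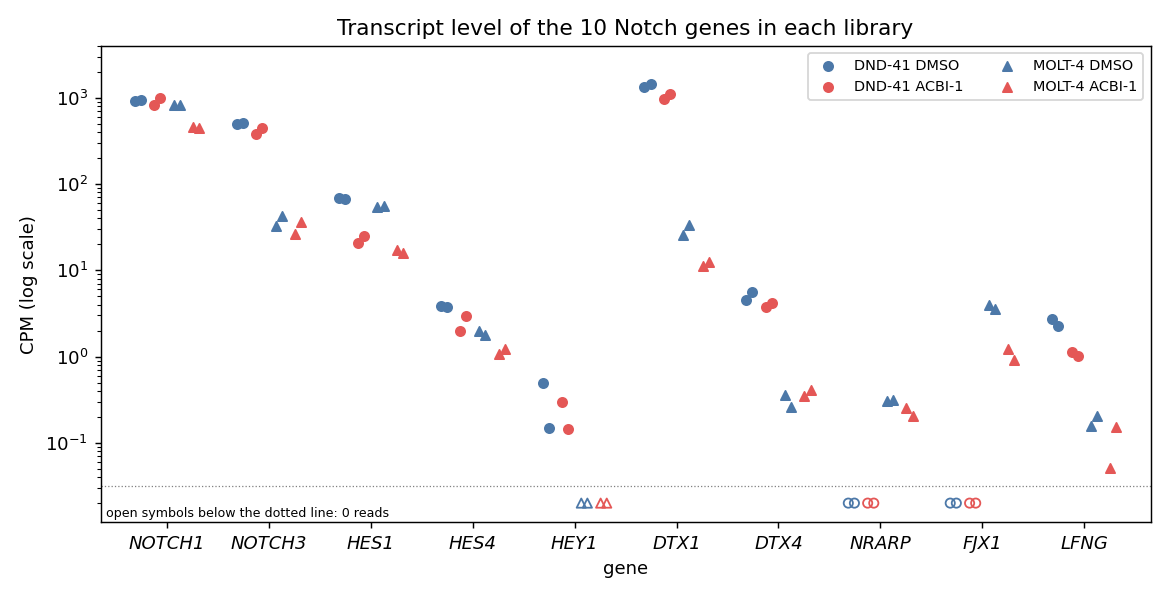
Level of each of the 10 genes in the 8 libraries, in CPM, with 1 point per library for each line and treatment. HES1 stood at 68 CPM in DND-41 and 55 CPM in MOLT-4 with DMSO, and at 23.1 and 16.7 CPM with ACBI-1.

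HES1 (ENSG00000114315) encodes a basic helix-loop-helix repressor and is the classical readout of Notch activity. In DND-41 it had 426 and 524 reads with ACBI-1 and 1405 and 1345 with DMSO. In MOLT-4 it had 342 and 313 reads with ACBI-1 and 1049 and 1080 with DMSO. In each line both ACBI-1 libraries lay far below both DMSO libraries. HES1 fell 2.91-fold in DND-41, with a log2 fold change of -1.54 ± 0.086 (SE; 95% interval -1.72 to -1.37; edgeR, adjusted p = 7.00e-15), the 3rd lowest p of the 14019 genes tested. In MOLT-4 it fell 3.32-fold, at -1.73 ± 0.083 (-1.9 to -1.56; edgeR, adjusted p = 1.04e-13), the 2nd lowest of 14470. The responses of the lines differed by -0.16 ± 0.12 (MOLT-4 minus DND-41; interval -0.42 to 0.091; edgeR, adjusted p = 0.856), which is not past the threshold of 0.05. When ACBI-1 replicate 1 was left out of the DND-41 fit, HES1 stood at -1.42 with an adjusted p of 0.0596. In a fit of all 8 libraries it stayed called without each DND-41 library in turn (highest edgeR adjusted p = 5.20e-12).

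HES4 (ENSG00000188290), a relative of HES1 expressed in human thymocytes, had few reads. DND-41 had 40 and 61 with ACBI-1 and 78 and 75 with DMSO, and MOLT-4 had 21 and 24 with ACBI-1 and 38 and 34 with DMSO. The ACBI-1 libraries were the lower in each line, without overlap. The log2 fold change was -0.61 ± 0.22 (interval -1.06 to -0.15) in DND-41 and -0.7 ± 0.29 (-1.3 to -0.11) in MOLT-4, and neither was called (edgeR, adjusted p = 0.0838 and 0.136). The DND-41 value depended on the ACBI-1 libraries. In the fit of all 8 it was -0.94 without ACBI-1 replicate 2, which was called (edgeR, adjusted p = 0.0238), and -0.37 without ACBI-1 replicate 1 (0.482). HEY1 (ENSG00000164683), another repressor of this family, had 6 and 3 reads with ACBI-1 and 10 and 3 with DMSO in DND-41, and 0 in all 4 MOLT-4 libraries. It was below the filter on low counts and was not tested.

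NOTCH1 (ENSG00000148400), the receptor itself, responded differently in the lines. In DND-41 it had 16942 and 20698 reads with ACBI-1 and 18433 and 19003 with DMSO. The ACBI-1 libraries spanned the DMSO libraries, and the ACBI-1 library with the lower count was the one with the higher mitochondrial share; its part in this value was not tested. In MOLT-4 it had 9111 and 8736 reads with ACBI-1 and 16129 and 15957 with DMSO, without overlap. NOTCH1 stood at -0.0028 ± 0.086 in DND-41 (interval -0.18 to 0.17; edgeR, adjusted p = 0.993), and fell 1.83-fold in MOLT-4, at -0.88 ± 0.062 (-1 to -0.75; edgeR, adjusted p = 1.59e-10). The difference of the responses was -0.85 ± 0.11 (interval -1.07 to -0.63; edgeR, adjusted p = 4.86e-05), the 7th lowest p of the 15604 genes tested. It stayed called without each of the 8 libraries in turn, from -0.97 to -0.71 (highest adjusted p = 0.00365). This test uses the same libraries as the responses of the single lines and is not separate evidence of them.

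NOTCH3 (ENSG00000074181), a receptor that is itself a known NOTCH1 target, had 7773 and 9378 reads with ACBI-1 and 10170 and 10184 with DMSO in DND-41. MOLT-4 had 517 and 704 with ACBI-1 and 626 and 817 with DMSO. The groups were apart in DND-41 and overlapped in MOLT-4. NOTCH3 fell by 0.26 ± 0.077 on the log2 scale in DND-41 (interval -0.41 to -0.1; edgeR, adjusted p = 0.0277), and stood at -0.27 ± 0.12 in MOLT-4 (-0.51 to -0.031; adjusted p = 0.154). The DND-41 call was lost with library totals as the scaling (adjusted p = 0.0611) and in the fit of all 8 libraries (0.0748). It was also lost when any of 3 libraries was left out: the replicate 1 library of ACBI-1 (-0.14, adjusted p = 0.246), that of DMSO (0.277), or the replicate 2 library of DMSO (0.334). Without DMSO replicate 1 NOTCH3 was called in MOLT-4 (-0.45, adjusted p = 2.52e-04), and without ACBI-1 replicate 1 it stood at -0.05. The responses differed by 0.013 ± 0.15 (interval -0.3 to 0.33; edgeR, adjusted p = 1).

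DTX1 (ENSG00000135144) encodes Deltex 1, a ubiquitin ligase that acts on Notch and is switched on by it in lymphocytes. In DND-41 it had 19603 and 22870 reads with ACBI-1 and 26757 and 29077 with DMSO. In MOLT-4 it had 224 and 242 with ACBI-1 and 499 and 649 with DMSO. The ACBI-1 libraries were the lower in both lines. The fold was larger in MOLT-4 (29.6 CPM with DMSO and 11.9 with ACBI-1), but the drop in CPM was larger in DND-41 (1380 and 1030). The responses are compared on the log2 scale. DTX1 fell 1.32-fold in DND-41 (log2 -0.4 ± 0.088, interval -0.58 to -0.23; edgeR, adjusted p = 0.0018) and 2.51-fold in MOLT-4 (-1.33 ± 0.11, -1.56 to -1.09; adjusted p = 6.86e-09). The responses differed by -0.9 ± 0.15 (interval -1.21 to -0.59; edgeR, adjusted p = 0.00153). That difference stayed called without each of the 8 libraries, from -1.11 to -0.72 (highest adjusted p = 0.0459), and was lost with no filter on low counts (-0.92, adjusted p = 0.148). In DND-41 DTX1 was no longer called when the replicate 1 library of ACBI-1 (-0.31, adjusted p = 0.173) or the replicate 2 library of DMSO (0.276) was left out, but not without any library in the fit of all 8 (highest adjusted p = 0.0421).

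DTX4 (ENSG00000110042), another Deltex gene, had 76 and 87 reads with ACBI-1 and 92 and 112 with DMSO in DND-41, where the groups did not overlap. It stood at -0.33 ± 0.18 (interval -0.7 to 0.039; edgeR, adjusted p = 0.302) and was not called. In MOLT-4 it had 5 to 8 reads per library and was not tested. Its exons share 78 bases with the opposite-strand gene MPEG1, which had at most 1 read in any library.

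LFNG (ENSG00000106003) encodes Lunatic Fringe, a glycosyltransferase that adds sugar to the Notch receptor and alters its choice of ligand. DND-41 had 23 and 21 reads with ACBI-1 and 55 and 45 with DMSO, without overlap, and LFNG fell 2.28-fold there (log2 -1.19 ± 0.29, interval -1.77 to -0.61; edgeR, adjusted p = 0.00497). Without 1 library the call was lost in 3 of the 4 DND-41 fits: ACBI-1 replicate 1 (adjusted p = 0.186), ACBI-1 replicate 2 (0.147) and DMSO replicate 1 (0.11). In the fit of all 8 libraries LFNG ran from -1.33 to -1.06 when a DND-41 library was left out, and did not stay called each time. In the authors' deposited DND-41 comparison it stood at -1.19 ± 0.46 (DESeq2, adjusted p = 0.126). In MOLT-4 LFNG had 1 and 3 reads with ACBI-1 and 3 and 4 with DMSO and was not tested.

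FJX1 (ENSG00000179431), a gene for a secreted kinase-like protein of the four-jointed family, had 0 reads in all 4 DND-41 libraries, DMSO replicate 2 included. MOLT-4 had 24 and 18 reads with ACBI-1 and 76 and 69 with DMSO, without overlap. FJX1 fell 3.51-fold in MOLT-4 (log2 -1.81 ± 0.25, interval -2.33 to -1.29; edgeR, adjusted p = 1.14e-05). NRARP (ENSG00000198435), a feedback inhibitor that binds the Notch complex, also had 0 reads in DND-41. MOLT-4 had 5 and 4 with ACBI-1 and 6 and 6 with DMSO, and NRARP was not tested. A count of 0 allows up to 3 reads per library, counting error only.

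In DND-41, 7 of the 10 genes passed the filter; 4 of them (HES1, LFNG, DTX1 and NOTCH3) were called lower and 0 higher (edgeR; 0 higher also at an unadjusted p under 0.05 and with DESeq2). Over all 14019 genes tested, 9.83% were called, 6.05% lower and 3.78% higher. In MOLT-4, 6 of the 10 passed; 4 (HES1, FJX1, DTX1 and NOTCH1) were called lower and again 0 higher by each of these counts, where 10.8% of all genes were called, 6.94% lower and 3.9% higher. The median log2 fold change of the tested members was -0.4 in DND-41 and -1.1 in MOLT-4, beside 0.0029 and -0.00097 over all genes tested. With no filter on low counts 0 members were called in DND-41 (HES1 adjusted p = 0.0645), and HES1 and NOTCH1 in MOLT-4. The counts describe genes that passed the filter and are no test of the set. When a library was left out of a line's own fit, the remaining library of that group was taken to vary like the other group. The count in DND-41 was then 0 without ACBI-1 replicate 1, 3 without ACBI-1 replicate 2, and 2 without either DMSO library. In MOLT-4 it was 0 without either ACBI-1 library, where no gene at all was called, although 1874 and 2273 genes had an unadjusted p under 0.05; HES1 then had adjusted p-values of 0.271 and 0.074. In the fit of all 8 libraries HES1, NOTCH1, DTX1 and FJX1 stayed called in MOLT-4 without each of its 4 libraries in turn (highest edgeR adjusted p = 1.01e-07, 4.61e-05, 4.54e-05 and 0.00928).

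**Figure D2:**
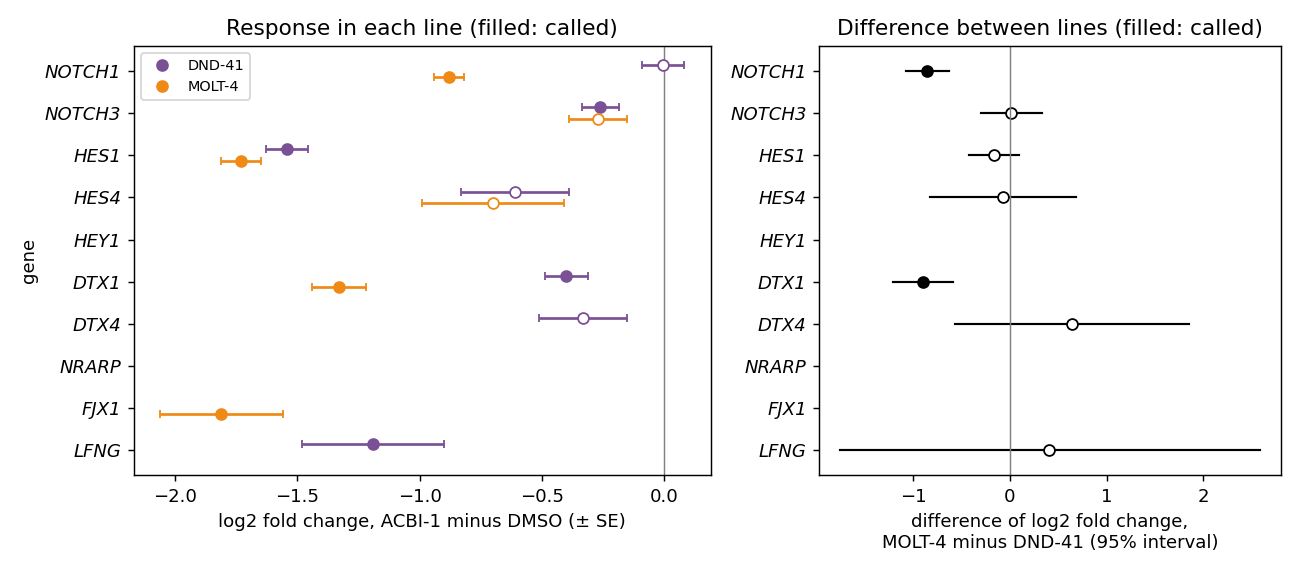
Left, log2 fold change, ACBI-1 minus DMSO, in each line, for those of the 10 genes that were tested, with bars of ± SE of the edgeR fit. Right, the difference of the responses, MOLT-4 minus DND-41, with its 95% interval and without FJX1. Filled points were called. In DND-41 HES1 lies at -1.54 and NOTCH1 at -0.0028; the MOLT-4 values are -1.73 and -0.88.

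The difference of the response between the lines was tested for 8 of the 10 genes. NOTCH1 and DTX1 were called, both with the lower value in MOLT-4, where 0.641% of 15604 genes were called, 0.442% in that direction and 0.199% in the other. FJX1 had no reads in DND-41, so its difference carries no information. LFNG differed by 0.41 ± 1.06 (interval -1.75 to 2.58), DTX4 by 0.64 ± 0.59 (-0.56 to 1.85) and HES4 by -0.072 ± 0.36 (-0.82 to 0.68), and at these counts a difference was not detectable.

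With DMSO alone, 7 of the 8 tested genes differed between the lines, with 6 lower in MOLT-4 and 1 higher. Over all genes tested 64.4% were called, 31.6% lower and 32.8% higher. DTX4 and LFNG passed the filter on low counts only through DND-41, and FJX1 only through MOLT-4. Their calls were therefore largely set by the filter. In MOLT-4 with DMSO, DTX4 had 7 and 5 reads and LFNG 3 and 4, so their folds are imprecise. DTX1 was 46.6-fold lower in MOLT-4 (log2 -5.54 ± 0.11; edgeR, adjusted p = 2.39e-25), at 29.6 ± 5.53 CPM against 1380 ± 89.1 (SD, n = 2). DTX4 was 16-fold lower (-4 ± 0.31), NOTCH3 13.5-fold (-3.76 ± 0.11) and LFNG 13.3-fold (-3.73 ± 0.43). HES4 was 2.03-fold lower (-1.02 ± 0.23) and HES1 1.24-fold (-0.31 ± 0.077; edgeR, adjusted p = 9.94e-04). For NOTCH1 the difference was -0.16 ± 0.076 (interval -0.32 to -0.0052; edgeR, adjusted p = 0.0656) and not called, but it was called with library totals (-0.21, adjusted p = 0.024) and with the DMSO libraries alone (-0.16, 0.0271). FJX1 was at least 25.2-fold higher in MOLT-4, at 3.74 CPM against a floor of 3 reads per library (0.148 CPM; edgeR, adjusted p = 1.97e-11). The lines were counted in separate tables, so the line and any batch between them cannot be told apart, and these libraries are also the controls of the ACBI-1 responses.

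The other genes of the pathway were read from a list of 81. In DND-41 65 were tested, of which 4 rose and 12 fell, where 3.78% of all genes were called higher and 6.05% lower, and their median log2 fold change was -0.025. In MOLT-4 70 were tested, of which 3 rose and 13 fell, where 3.9% were called higher and 6.94% lower, and their median was -0.026. Lower calls were shared by 7 genes (NOTCH2, TLE4, NUMBL, DTX3L, TRIB2, CD44 and TSPAN14), which is 58.3% of those in DND-41 and 53.8% of those in MOLT-4. Over all genes, 431 lower calls were shared, 50.8% and 42.9% of those in each line. MYC, the growth-promoting transcription factor and a known NOTCH1 target, was the single gene that rose in both (0.3 ± 0.089 in DND-41 and 0.35 ± 0.063 in MOLT-4; edgeR, adjusted p = 0.0274 and 3.00e-04). In DND-41 MYC lost its call without any 1 of the 4 libraries in the line's own fit and ranged from 0.15 without ACBI-1 replicate 2 to 0.43 without ACBI-1 replicate 1. In the fit of all 8 it stayed called without ACBI-1 replicate 1 alone. In MOLT-4 MYC ran from 0.31 to 0.38 when a library was left out of that fit, and did not stay called each time. The count of falls in DND-41 was 0 without ACBI-1 replicate 1, 3 without ACBI-1 replicate 2, 5 without DMSO replicate 1 and 7 without DMSO replicate 2, and that of rises was 0 without ACBI-1 replicate 1 and 1 without each of the others. In MOLT-4 both counts were 0 without either ACBI-1 library. In the fit of all 8 libraries the falls numbered 7 to 10 in DND-41 and 9 in MOLT-4 when a library was left out. NOTCH2, TLE4 and TSPAN14 stayed called there in both lines without each library in turn, as did TRIB2 and GIMAP5 in DND-41 and NUMBL, TLE3, CD44 and IGF1R in MOLT-4. With no filter on low counts 0 pathway genes were called in either line.

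Among the receptors, NOTCH2 had 2657 and 2565 reads with ACBI-1 and 3305 and 3303 with DMSO in DND-41, and 2254 and 2252 against 2738 and 2986 in MOLT-4. It fell by 0.35 ± 0.067 and 0.37 ± 0.064 on the log2 scale (edgeR, adjusted p = 4.57e-04 and 1.78e-04). Of 6 ligand genes, 1 passed the filter in DND-41 and 2 in MOLT-4. DLL1, a Delta-type ligand, had 6 and 4 reads with ACBI-1 and 15 and 16 with DMSO in MOLT-4 and fell by 1.64 ± 0.49 (adjusted p = 0.0287). This call was lost without any 1 of the MOLT-4 libraries. DLL1 lies below the level set for naming and was chosen after its values were seen.

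Most of the tested genes that process the receptor were not called. In DND-41, APH1B, a subunit of the gamma-secretase that cuts Notch, fell by 0.5 ± 0.12 (edgeR, adjusted p = 0.00444), a call lost with DESeq2 and without ACBI-1 replicate 1, ACBI-1 replicate 2 or DMSO replicate 1. Of the 8 tested, 6 were not called. In MOLT-4 the 9 tested lay between -0.26 and 0.16. Of 4 genes that glycosylate the receptor, MFNG, the Manic Fringe gene, fell by 0.36 ± 0.089 in MOLT-4 (edgeR, adjusted p = 0.00758, and DESeq2, adjusted p = 0.115). MFNG ran from -0.41 to -0.32 when a MOLT-4 library was left out of the fit of all 8, and did not stay called each time. In DND-41 the 4 genes lay between -0.17 and 0.13.

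In the nucleus, 9 genes of the activating complex were tested in each line. The acetyltransferase gene KAT2B fell by 0.43 ± 0.14 in DND-41 (edgeR, adjusted p = 0.0484), but was not called with DESeq2 (0.346), with library totals (0.0545) or without any 1 of the 4 libraries. In MOLT-4 the coactivator EP300 fell by 0.28 ± 0.062 and the acetyltransferase KAT2A rose by 0.27 ± 0.063 (adjusted p = 0.00295 and 0.00514). When a MOLT-4 library was left out of the fit of all 8, EP300 ran from -0.34 to -0.23 and KAT2A from 0.2 to 0.32. Neither stayed called each time. Of 13 corepressor genes, TLE4, a Groucho-type partner of HES proteins, fell in both lines, by 0.52 ± 0.093 and 0.6 ± 0.069 (adjusted p = 1.93e-04 and 8.41e-07). TLE3 fell by 0.35 ± 0.061 in MOLT-4, and CTBP2, a corepressor of many factors, by 0.24 ± 0.078 in DND-41. The CTBP2 call was lost with DESeq2 (adjusted p = 0.232), with library totals (0.0645), in the fit of all 8 libraries (0.104) and without any 1 library. HES6, a family member that opposes HES1, had 78 and 94 reads with ACBI-1 and 161 and 130 with DMSO in MOLT-4. It fell by 0.79 ± 0.17 (edgeR, adjusted p = 0.00178, and DESeq2, adjusted p = 0.0558). HES6 ran from -0.94 to -0.63 when a MOLT-4 library was left out of the fit of all 8, and did not stay called each time.

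Of 14 turnover and trafficking genes, NUMBL, which encodes a relative of the Notch inhibitor Numb, fell by 0.36 ± 0.089 in DND-41 and 0.73 ± 0.1 in MOLT-4 (edgeR, adjusted p = 0.00629 and 9.48e-06, and DESeq2, 0.0813 in DND-41). In DND-41 NUMBL ran from -0.42 to -0.33 when a library of that line was left out of the fit of all 8, and did not stay called each time. DTX3L, a Deltex-family ligase, fell by 0.27 ± 0.076 and 0.21 ± 0.069 (adjusted p = 0.0183 and 0.0471). In MOLT-4 DTX3L was not called with DESeq2 (0.267), library totals (0.107), the fit of all 8 libraries (0.0838) or any 1 library left out, and in DND-41 not with DESeq2 (0.115) or without any 1 library in the line's own fit. AAK1, a kinase of endocytosis known to bind and phosphorylate Numb, rose by 0.29 ± 0.066 in DND-41 (adjusted p = 0.00264; lost without any 1 library in the line's own fit) and stood at -0.22 in MOLT-4 (0.0949).

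Among other known NOTCH1 targets of T-ALL, TSPAN14, a tetraspanin that regulates the Notch-cutting protease ADAM10, fell by 0.66 ± 0.08 in DND-41 and 0.49 ± 0.073 in MOLT-4 (edgeR, adjusted p = 3.64e-07 and 3.28e-05). The pseudokinase gene TRIB2 fell by 0.46 ± 0.069 in DND-41 (adjusted p = 1.78e-05) and by 0.29 in MOLT-4, where the call was lost with DESeq2 (0.263), with library totals (0.0626) and in the fit of all 8 without each library in turn. GIMAP5, a GTPase gene of lymphocyte survival, rose by 0.68 ± 0.069 in DND-41 (adjusted p = 1.64e-08) and stood at 0.035 in MOLT-4 (0.834). CCND3, the cyclin D3 gene, rose by 0.37 ± 0.063 in MOLT-4 (edgeR, adjusted p = 1.80e-04). CCND3 ran from 0.3 to 0.43 when a MOLT-4 library was left out of the fit of all 8, and did not stay called each time. Of this group 2 of 14 rose and 5 fell in DND-41, and 2 of 15 rose and 4 fell in MOLT-4, beside 3.78% and 6.05% of all genes in DND-41 and 3.9% and 6.94% in MOLT-4.

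**Figure D3:**
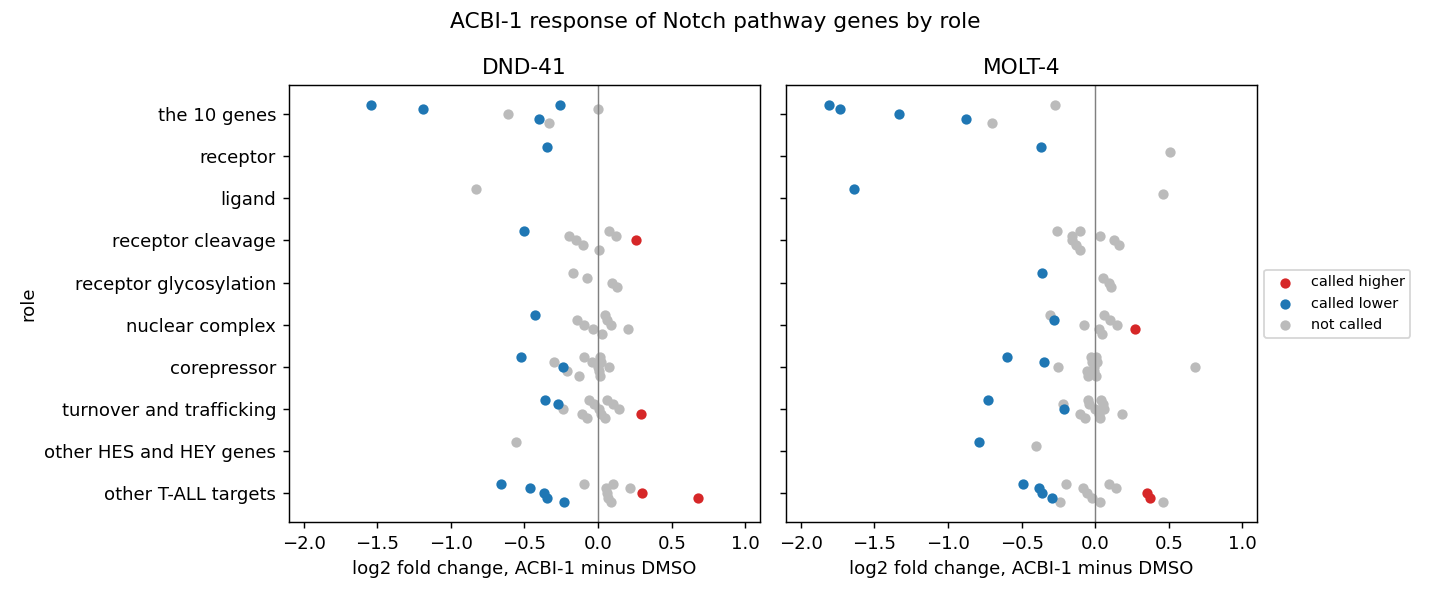
Log2 fold change, ACBI-1 minus DMSO, of every tested gene of the 10 and of the pathway list in each line, by role, with 1 point per gene and colour for the edgeR call. The 10 genes reach -1.54 in DND-41 and -1.81 in MOLT-4, while most pathway genes lie near 0.

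The difference of the response between lines was called for 3 of 70 pathway genes, all lower in MOLT-4: AAK1, IGF1R and GIMAP5. Over all 15604 genes 0.641% were called, 0.442% in that direction. AAK1 differed by -0.49 ± 0.1 (edgeR, adjusted p = 0.0169), IGF1R, a growth factor receptor gene, by -0.42 ± 0.099 (0.0382) and GIMAP5 by -0.62 ± 0.1 (0.00157). IGF1R was chosen after its values were seen. GIMAP5 stayed called without each of the 8 libraries, from -0.74 to -0.53. With no filter on low counts none of the 3 was called (edgeR, adjusted p = 0.122 for GIMAP5, 0.224 for AAK1 and 0.29 for IGF1R). AAK1 lost its call without either DND-41 DMSO library (adjusted p = 0.0629 and 0.0651), without MOLT-4 ACBI-1 replicate 2 (0.19) or without MOLT-4 DMSO replicate 2 (0.0958). IGF1R kept its call only without DND-41 ACBI-1 replicate 2 (0.011) or MOLT-4 DMSO replicate 1 (0.014), and had adjusted p-values between 0.0948 and 0.202 without each of the other libraries.

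The profile across the 8 libraries was compared with those of 10256 other genes, after each was centred on its own mean on the log2 CPM scale. Nearest to HES1 were TAGAP, a gene of T-cell activation, with a root mean square difference of 0.21 (Pearson r = 0.968), HYLS1, a centriole gene, at 0.34 (r = 0.917), and MARCH9, a membrane-bound ubiquitin ligase gene, at 0.41 (r = 0.971). TAGAP had 88 and 109 reads with ACBI-1 and 265 and 248 with DMSO in DND-41, and 51 and 62 against 147 and 165 in MOLT-4. Nearest to NOTCH1 were DDIT4, an inhibitor of mTOR signalling, at 0.1 (r = 0.984), CARNS1, the carnosine synthase gene, at 0.13 (r = 0.988), and CAMKK1, a calcium-dependent kinase gene, at 0.13 (r = 0.959). DDIT4 had 339 and 430 reads with ACBI-1 and 418 and 444 with DMSO in DND-41, and 170 and 183 against 345 and 375 in MOLT-4. These are descriptions over 8 libraries that share depth, line and treatment, and they carry no test.

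**Figure D4:**
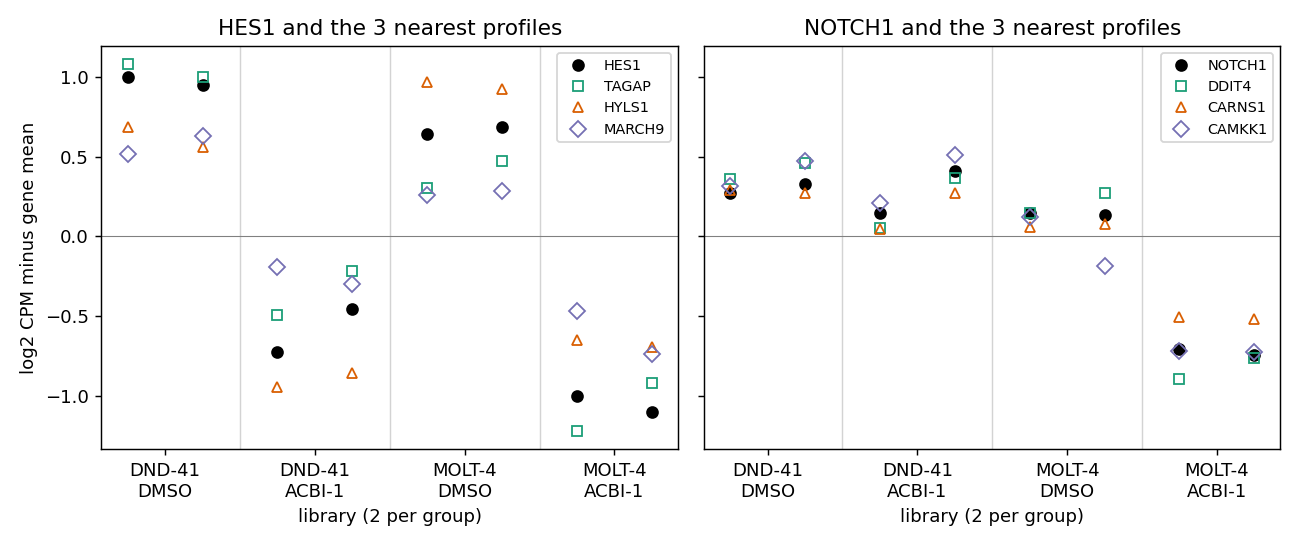
Log2 CPM centred on each gene's own mean, for HES1 and NOTCH1 and for the 3 genes nearest to each, in the 8 libraries. The HES1 profiles drop with ACBI-1 in both lines, and the NOTCH1 profiles drop in MOLT-4.

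In the authors' deposited table for DND-41 the sign of the log2 fold change matched ACBI-1 minus DMSO for all 1378 called genes, with HES1 at -1.54. In the authors' deposited table for MOLT-4 it was the opposite for all 1568, with HES1 at 1.72, NOTCH1 at 0.87 and DTX1 at 1.32. The values above are all ACBI-1 minus DMSO and were computed from the counts.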

How the data were processed

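Total RNA of 8 libraries was sequenced, strand-specific and paired-end per the labels' protocols. For each line the authors deposited raw, unscaled read counts per gene. A further deposited table per line holds, per the file headers, a mean signal of normalized counts, a log2 fold change with its standard error, a test score (the Wald statistic) and p-values before and after adjustment. The submitters' processing notes name STAR 2.5.2a, featureCounts, DESeq2 1.12.4 and hg19, with no role or order. Which annotation and strand option featureCounts used is not given in the sources used here, and overlapping or antisense genes therefore cannot be told apart. The antisense gene RP11-413M3.4, within an intron of NOTCH1, had at most 21 reads.

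Counts were tested with edgeR 4.0.16 (R 4.3.3; limma 3.58.1) by the quasi-likelihood F-test, after TMM scaling and filterByExpr, with Benjamini-Hochberg adjustment over all genes tested and a threshold of 0.05. The response of a line was fitted on its 4 libraries. The difference between the responses and the DMSO comparison came from 1 fit of all 8, whose scaling also gave the CPM values. With 2 libraries per group an exact permutation test cannot reach the threshold. Merged exon lengths came from GENCODE 29, and promoter windows (250 bases before the start) from RefSeq on GRCh38.p14. Where a symbol had several entries the one with the most reads was used. Replicates differed by more than sampling noise in every group (mean chi-square per gene, mitochondrial genes included, 15.6 for ACBI-1 in DND-41 and 2.99 to 5.1 in the others).

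The members and lists were chosen with earlier results of these data known. All members are reported, and other pathway genes, some of which are not reported here, were named where called in either line at a mean of at least 5 CPM, up to 4 per role by p. The genes of nearest profile were the 3 with the smallest root mean square difference. The scripts were tested on simulated data. Alternatives were DESeq2 1.42.0, its size factors, library totals, no filter, a replicate block, all 8 libraries in 1 fit, the DMSO libraries alone, and leaving out each library.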

Additional observations from a re-analysis of the deposited data

Results flagged for a closer look

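The response to ACBI-1 differed between the lines, by the edgeR test of the difference itself (MOLT-4 minus DND-41, log2), for NOTCH1 (-0.85) and DTX1 (-0.9) among the 10 genes. Among the other pathway genes it differed for AAK1 (-0.49), IGF1R (-0.42) and GIMAP5 (-0.62). Groups of 2 libraries are too small to look for a single library that lies far from its group.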

How the results depend on the processing

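The counts of called genes depended on the setting. In DND-41 1378 genes were called, 612 with DESeq2, 2 with no filter on low counts (2825 had an unadjusted p under 0.05) and 2230 with the replicate number as a block. In MOLT-4 1568 were called, 689 with DESeq2, 39 with no filter and 2228 with the block, and for the difference between lines 100, 13 with no filter and 302 with the block. Pathway falls numbered 12 in DND-41 and 13 in MOLT-4, 6 and 8 with DESeq2, and 0 in both with no filter. Without a filter 0 members were called lower in DND-41, 2 in MOLT-4 and 1 for the difference. With DMSO alone 2 members were higher in MOLT-4 by DESeq2 or with no filter. The cause of these shifts was not tested.

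Leaving out each library in turn gave 3 to 632 genes in DND-41 and 0 to 1430 in MOLT-4 in their own fits, and 692 to 1264 and 712 to 942 in the fit of all 8 (914 and 770 in DND-41 without ACBI-1 replicate 1 or DMSO replicate 1, 725 and 774 in MOLT-4 without ACBI-1 replicate 1 or DMSO replicate 2). Members called lower numbered 0 to 3 and 2 to 4 in DND-41, and 0 to 5 and 4 to 5 in MOLT-4. For the difference between lines 49 to 138 genes and 2 members were called. For DMSO 9154 to 9288 genes were called, with 6 to 7 members lower and 1 higher.

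The sign changed only where values lay near 0 or counts were low. NOTCH1 in DND-41 was 0.0078 with library totals and -0.14 to 0.12 without a library (-0.15 to 0.11 in the fit of all 8, with 0.012 without DMSO replicate 2). The difference between lines for NOTCH3 was -0.0072 with DESeq2, -0.0073 with its size factors, -0.009 with no filter and -0.27 to 0.2 without a library. That for HES4 ran from -0.33 to 0.25 and that for LFNG from -0.54 to 0.95.

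The labels number the replicates, but libraries of the same number did not deviate together (correlation 0.0422 in DND-41, 0.0434 in MOLT-4 and -0.00248 between the DMSO libraries of the lines). With the replicate block HES4 in DND-41 (-0.61, adjusted p = 0.0368) and NOTCH3 in MOLT-4 (-0.27, 0.00543) were called. HEY1 and NRARP, and in MOLT-4 DTX4 and LFNG, had too few reads to pass the filter for the ACBI-1 response; the differences of DTX4 and LFNG between the lines with DMSO rest on 3 to 7 reads per MOLT-4 library.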
